A study of Mus musculus with 16 samples.

Results

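Transcripts of 10 ubiquitin ligases tied to muscle wasting were followed in mouse quadriceps: Fbxo32, Fbxo30, Fbxo31, Fbxo21, Fbxo40, Trim63, Trim55, Trim32, Cblb and Mul1. Members were the genes of these names, and every array probe whose RefSeq accession belonged to one of them was taken. All 10 genes were found among the 21281 genes tested, through 14 probes on 23 spots, and all 14 probes passed the filter on dim signal. Of the 21281, 14149 had a gene symbol. The rest were array entries without one, each counted as a gene, and shares of all genes below include them. Total RNA came from male mice aged 8 weeks in 4 groups of 4 mice with 1 array each: fed wild-type (WT) mice, WT mice fasted for 24 h, and fed and fasted mFoxO-TKO mice. The mFoxO-TKO animals lacked FoxO1, FoxO3 and FoxO4 in skeletal muscle through a Cre recombinase under the human α-actin (HSA) promoter, so other cells of the tissue kept the 3 genes. The labels gave wild-type mice as the controls and said nothing of littermates or of Cre in them.

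Ubiquitin ligases choose the proteins that are tagged with ubiquitin and then broken down by the proteasome. F-box proteins such as Fbxo32 are the substrate-binding part of an SCF ligase, built on a cullin scaffold with Skp1 and Rbx1, whereas RING proteins such as Trim63 bind the substrate and the charged E2 enzyme themselves. In skeletal muscle, transcripts of several of these ligases rise in fasting, denervation and glucocorticoid excess, and FoxO transcription factors, which insulin signalling keeps out of the nucleus, bind the promoters of some of them.

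No promoter window was on hand for Fbxo32 and Trim55, which were therefore not searched. A window was on hand for the other 8 of the 10 members (9 windows in RefSeq, build GRCm38.p6, Fbxo40 having 2 of them). Each was searched, on both strands, in the 250 bases before the start site for a FoxO-type motif (GTAAACA), the palindrome of the glucocorticoid receptor (its half-sites GAACA and TGTTC with 3 bases between them), a muscle E-box (CAGCTG) and a TFEB-type motif (CACGTGAC). The FoxO-type letters were found in 1 of the 9 member windows, that of Trim63, and in 3.17% of all 32851 windows. The receptor palindrome was also found in that of Trim63 alone among the members, and in 0.0396% of all windows. The window of Trim63 is shown because both motifs stand in it with a single base between them; it lies at chr4:134314870-134315119 on the plus strand, and capitals mark first the palindrome, 208 to 196 bases before the start, and then the FoxO-type motif read on the opposite strand, 194 to 188 bases before it.
Trim63: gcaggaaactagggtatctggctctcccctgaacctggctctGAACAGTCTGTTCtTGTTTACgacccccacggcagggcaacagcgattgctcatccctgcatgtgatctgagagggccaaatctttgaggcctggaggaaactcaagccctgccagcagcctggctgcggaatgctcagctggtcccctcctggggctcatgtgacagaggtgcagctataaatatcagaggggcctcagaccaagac
The E-box was found for Trim63, Trim32 and both windows of Fbxo40 (13.0% of all windows) and the TFEB-type motif for Mul1 (1.85%). These matches describe the letters of a window and show no binding, and no match says only that these letters are not in the 250 bases searched.

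Signals are given as log2 of the processed signal minus the 75th percentile of the array, so that 1 unit is a doubling of signal and values of different probes are not compared. A change is the mean of 1 group minus that of another ± the standard error from limma, with 4 arrays in each, and it passed at a Benjamini-Hochberg adjusted p under 0.05 over all genes tested. For a gene with several probes the brightest stands first. In bulk tissue, fewer cells of a type and less RNA per cell cannot be told apart. The 2 fasting effects and the 2 knockout effects share groups with one another, and their values are set side by side only.

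Some facts of the whole series bear on these values. Between 45.0% and 75.2% of an array's spots were well above background, and 0 spots were saturated. Replicates 1 and 2 of every group lay on slide 1 and replicates 3 and 4 on slide 2, and within a slide each group held its own column of arrays, so that array position and group cannot be told apart. Foxo1, as the check of the labels, was lower in mFoxO-TKO muscle, with differences of -1.76 ± 0.23 when fed and -3.40 ± 0.23 when fasted (adjusted p = 0.00117 and 3.38e-07). Foxo4 was well above background on all WT arrays and on 0 mFoxO-TKO arrays. The dim probe of Foxo3 did not pass in either feeding state (0.74 and -0.75, adjusted p = 0.299 and 0.0976), and the position of the FoxO probes against the deleted exons is not known here. Markers of muscle fibre were read throughout: the summed signal of 7 fibre genes, relative to the 75th percentile, ran from 2443 to 4729 over the 15 arrays that read all 7, and none of the 7 passed in any comparison (limma, also 0 at an unadjusted p under 0.05). Fasted mFoxO-TKO replicate 1 stood apart: areas where bright spots had lost more than 1 log2 unit against the other arrays of its group covered 5.96% of its spots, and areas of raised signal covered 1.04%, where no other array exceeded 0.481% and 0.142%. Of the member spots, that of Trim55 lay in a lost area and the dimmer probe of Cblb in a raised one on this array.

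In WT muscle, 24 h without food was accompanied by higher transcript signal of most of these ligases. Of the 10 members 7 rose and 1 fell at the threshold, against 20.8% of all genes tested that passed (11.2% higher and 9.57% lower). Their median change was 1.13, beside 0.02 over all genes. The fed and fasted groups did not overlap for 9 members, as they did not for 28.2% of all genes. In mFoxO-TKO muscle 4 of 10 rose and none fell (8.52% of all genes passed, 4.29% higher and 4.23% lower), with a median change of 0.43 beside 0.04, and 4 members had groups that did not overlap (13.8% of all genes).

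**Figure D1:**
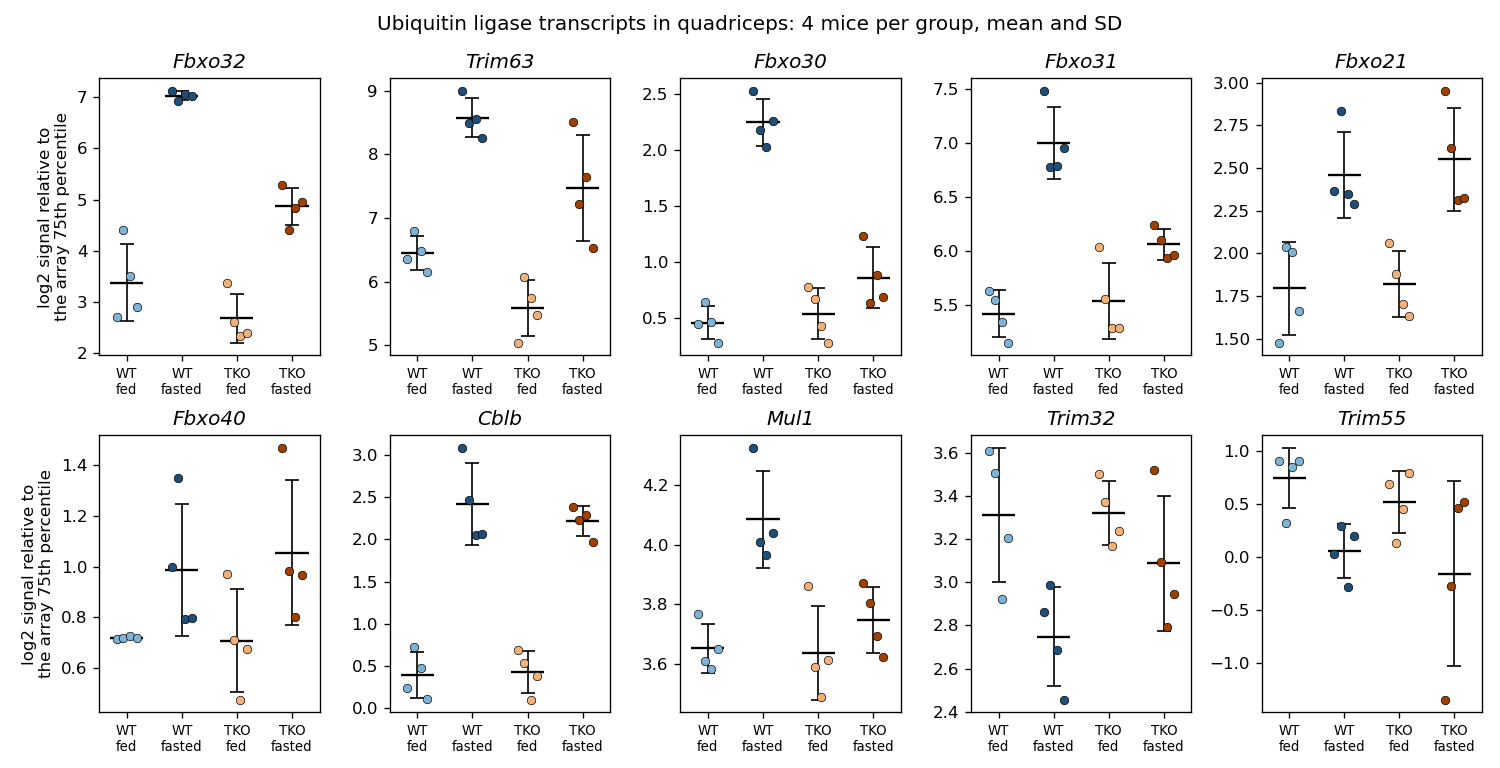
Signal of the 10 members by group, each panel a gene read by its brightest probe, on a log2 scale relative to the 75th percentile of the array. Points are the 4 mice of a group, the line and bar their mean and SD, and vertical axes differ between panels. Fasted WT points lie above all others for Fbxo32, Fbxo30, Fbxo31 and Mul1, whereas those of Cblb and Fbxo21 lie level with fasted mFoxO-TKO (TKO).

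Fbxo32 (atrogin-1), the F-box protein that directs eIF3f and MyoD to breakdown, was read by 10 spots of 1 probe. In fed WT muscle its signal was 2.70, 4.40, 3.49 and 2.90 in replicates 1 to 4. In fasted WT muscle it was 7.13, 6.93, 7.07 and 7.02. The fasted WT mice stood close together, with an SD of 0.08, whereas fed WT mice were the most widely spread group for this gene, with an SD of 0.76. In fed mFoxO-TKO muscle it was 3.37, 2.60, 2.32 and 2.39, and in fasted mFoxO-TKO muscle 5.29, 4.39, 4.83 and 4.94. The fasted knockout mice thus lay above every fed knockout mouse and below every fasted WT mouse, and the lowest of them was level with the highest fed WT mouse. Fasting raised Fbxo32 by 3.67 ± 0.32 in WT muscle (12.7-fold, adjusted p = 2.19e-06) and by 2.19 ± 0.32 in mFoxO-TKO muscle (4.58-fold, adjusted p = 0.000846). In fasted muscle it was lower in the knockout, with a difference of -2.17 ± 0.32 (4.51-fold, adjusted p = 0.000391). The difference between the fasting effects was -1.47 ± 0.45 (95% confidence interval -2.43 to -0.51) and did not pass over all genes (adjusted p = 0.16). It passed without fed WT replicate 2, the highest fed WT mouse (-1.81, adjusted p = 0.0303), and with no other array left out.

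The SD over the repeated Fbxo32 spots of an array ran from 0.0326 to 0.162, which measures noise between spots alone and not differences of labelling or hybridisation between arrays. On fasted mFoxO-TKO replicate 1, 9 of the 10 spots entered after 1 was marked as an outlier, with values from 4.96 to 5.48, the widest range of any array. None of the 10 lay in an area of lost signal by the definition used here, and the median around each spot deviated from the other arrays by -0.28 to 0.30. Without that array the fasting effect in mFoxO-TKO muscle was 2.05 (adjusted p = 0.00195).

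**Figure D2:**
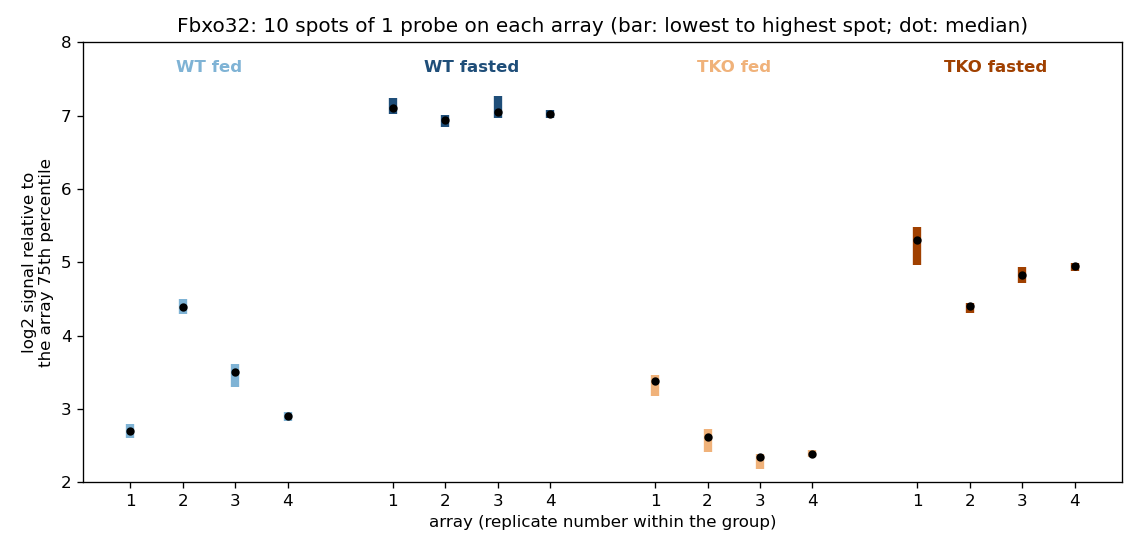
Signal of the repeated Fbxo32 spots on each of the 16 arrays, on a log2 scale relative to the 75th percentile of the array. The bar runs from the lowest to the highest spot and the dot is the median, over 9 or 10 spots an array. The longest bar is that of fasted mFoxO-TKO replicate 1, from 4.96 to 5.48.

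Fbxo30 (MUSA1) is an F-box protein whose transcript BMP signalling holds down in muscle. On the brightest probe of each gene, it was the only member whose fasting response differed between genotypes at the threshold. Its signal in replicates 1 to 4 was 0.44, 0.64, 0.46 and 0.28 in fed WT muscle and 2.52, 2.18, 2.02 and 2.26 in fasted WT muscle. Knockout mice had values of 0.78, 0.67, 0.43 and 0.28 when fed and 1.23, 0.63, 0.88 and 0.68 when fasted. Every fasted WT mouse was above all mice of the other groups, and the fed and fasted knockout groups overlapped. Fasting raised Fbxo30 by 1.79 ± 0.16 in WT muscle (3.46-fold, adjusted p = 3.46e-06), while the change in mFoxO-TKO muscle was 0.32 ± 0.16 (95% confidence interval -0.03 to 0.67, adjusted p = 0.276). The fasting effects differed by -1.47 ± 0.23 (adjusted p = 0.00557). By the brightest probes, Fbxo30 was the 1 of 10 members that passed this test, against 1.15% of all genes (0.724% lower). The dimmer probe of Trim63 also passed it (-1.79 ± 0.39, adjusted p = 0.0391), as given below. For Fbxo32 the difference was of the same size as for Fbxo30, -1.47 ± 0.45, and did not pass with its larger standard error. A difference of this size is thus not particular to Fbxo30. The second probe of Fbxo30 gave changes of 1.89 ± 0.16 and 0.29 ± 0.16 and a difference of -1.60 ± 0.23 (adjusted p = 0.00254). Fbxo30 was lower in fasted knockout than in fasted WT muscle, with a difference of -1.39 ± 0.16 (2.62-fold, adjusted p = 5.53e-05).

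Fbxo31, an F-box protein that directs cyclin D1 to breakdown after DNA damage, had a pattern of the same order of groups. Its signal was 5.63, 5.55, 5.34 and 5.15 in fed WT replicates 1 to 4 and 7.49, 6.78, 6.79 and 6.96 in fasted WT replicates. The knockout mice had 6.03, 5.55, 5.28 and 5.28 when fed and 6.24, 6.10, 5.94 and 5.96 when fasted. All fasted WT values exceeded all others, and 1 fed knockout mouse (replicate 1) lay among the fasted knockout mice. The rise in WT muscle was 1.59 ± 0.19 (3.00-fold, adjusted p = 4.54e-05). In mFoxO-TKO muscle the change of 0.52 ± 0.19 did not pass (adjusted p = 0.12), although it did under 7 of the alternatives, with the lowest adjusted p at 0.013. Among these were slide as a block (adjusted p = 0.0321), the second probe and the omission of fed mFoxO-TKO replicate 1 (0.69, adjusted p = 0.0337). The second probe gave 0.58 ± 0.15 and passed (adjusted p = 0.0323), but not once any 1 of 6 of the knockout arrays was dropped. Between fasted groups Fbxo31 was lower in the knockout, with differences of -0.94 ± 0.19 (adjusted p = 0.0053) and -0.81 ± 0.15 on the second probe (adjusted p = 0.00305). The difference of the fasting effects was -1.07 ± 0.28 (adjusted p = 0.0859), or -0.69 ± 0.22 on the second probe (adjusted p = 0.174), and neither passed. For the brighter probe this test passed under 6 of the alternatives, slide as a block (adjusted p = 0.0152) among them, with adjusted p from 0.00726 to 0.0289.

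The other F-box members moved less. Fbxo21 (SMART), which takes part in muscle loss after denervation, ran from 1.48 to 2.04 in fed and 2.29 to 2.84 in fasted WT muscle, and from 1.63 to 2.06 in fed and 2.31 to 2.95 in fasted mFoxO-TKO muscle. Neither pair of groups overlapped. It rose by 0.66 ± 0.19 in WT muscle (1.58-fold, adjusted p = 0.0179) and by 0.73 ± 0.19 in the knockout (1.66-fold, adjusted p = 0.0228), and the difference between these effects was 0.07 ± 0.26 (95% confidence interval -0.49 to 0.62). Both calls were narrow: the first was lost without any of fed WT replicates 1 and 4 or fasted WT replicate 2 (adjusted p of 0.055 to 0.0628), the second without any 1 of 4 mFoxO-TKO arrays. Fbxo40, a muscle F-box protein that acts on the insulin receptor substrate IRS1, ran from 0.71 to 0.73 in fed and 0.79 to 1.35 in fasted WT muscle. These groups did not overlap, yet the change of 0.27 ± 0.16 did not pass (adjusted p = 0.297), nor did that of 0.35 ± 0.16 in mFoxO-TKO muscle (adjusted p = 0.229).

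Trim63 (MuRF1), the RING ligase that takes apart thick-filament proteins of the sarcomere, was read by a pair of probes assigned to the same transcript, and they gave unlike answers. The brighter probe read 6.35, 6.80, 6.48 and 6.15 in fed WT replicates 1 to 4 and 8.997, 8.50, 8.56 and 8.26 in fasted WT replicates. Its readings in mFoxO-TKO muscle were 5.04, 6.08, 5.74 and 5.47 when fed and 8.505, 7.22, 7.64 and 6.53 when fasted. On this probe fasted knockout mice overlapped fasted WT mice, since replicate 1 of the knockout was above replicates 2 and 4 of WT. The dimmer probe read 4.59, 5.04, 4.82 and 4.59 in fed WT and 8.60, 8.15, 8.09 and 7.90 in fasted WT muscle. In the knockout it read 4.56, 4.20, 3.95 and 3.94 when fed and 6.59, 5.33, 6.17 and 5.12 when fasted. Here fasted WT mice stood above all fasted knockout mice with a gap of over 1 log2 unit.

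Fasting raised Trim63 in both genotypes on both probes. The rise in WT muscle was 2.13 ± 0.33 on the brighter probe (4.38-fold, adjusted p = 0.000331) and 3.43 ± 0.28 on the dimmer one (10.7-fold, adjusted p = 1.45e-06). In mFoxO-TKO muscle it was 1.89 ± 0.33 (3.70-fold, adjusted p = 0.0028) and 1.64 ± 0.28 (3.11-fold, adjusted p = 0.00241). The probes parted in fasted muscle, where Trim63 was lower in the knockout, with differences of -1.11 ± 0.33 on the brighter probe (adjusted p = 0.0489) and -2.38 ± 0.28 on the dimmer one (adjusted p = 5.12e-05). The first of these calls was lost without any 1 of 14 of the 16 arrays (adjusted p up to 0.139), whereas the second was kept without any 1 of the 16. The difference between the fasting effects was -0.24 ± 0.47 on the brighter probe (adjusted p = 0.932) and -1.79 ± 0.39 on the dimmer one (adjusted p = 0.0391), and the latter call was lost without any 1 of 14 arrays (adjusted p up to 0.097).

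The probes' disagreement can be followed array by array, as a description chosen after these values were seen and with no test. The dimmer probe minus the brighter one has no meaning as a level, and only its shift between groups is read here. It was -1.69 ± 0.09 (SD, n = 4) in fed WT, -0.39 ± 0.06 in fasted WT, -1.42 ± 0.64 in fed mFoxO-TKO and -1.67 ± 0.27 in fasted mFoxO-TKO muscle. Fasted WT arrays ran from -0.47 to -0.34 and did not overlap fed WT or fasted mFoxO-TKO arrays, while fed mFoxO-TKO replicate 1, at -0.48, lay next to them and far from its group. The exons that the probes read are not known here.

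**Figure D3:**
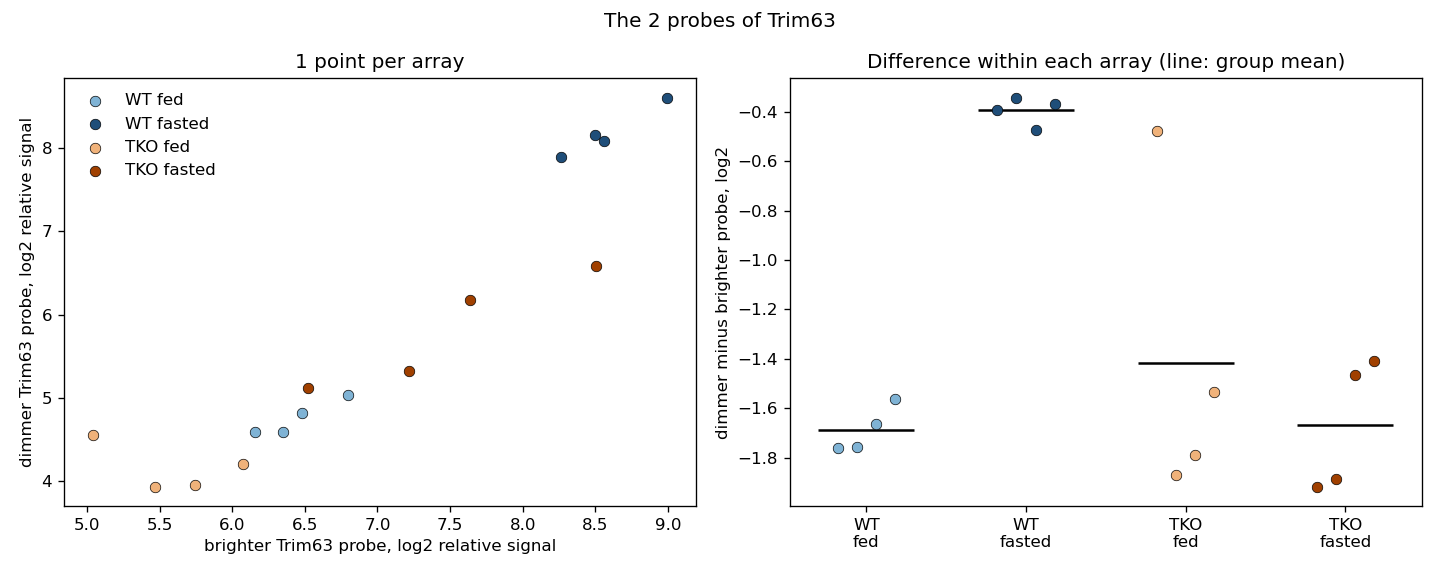
The pair of Trim63 probes on the 16 arrays, in log2 signal relative to the 75th percentile of the array. The left panel sets the dimmer probe against the brighter one, and the right panel gives their difference within each array with the group mean as a line. The 4 fasted WT arrays sit between -0.47 and -0.34, and the group means of the others lie between -1.69 and -1.42.

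Trim55 (MuRF2), a titin-binding relative of Trim63, and Trim32, a RING ligase of desmin and other fibre proteins, went the other way. Trim32 ran from 2.92 to 3.61 in fed and 2.46 to 2.99 in fasted WT muscle, groups that overlapped. It fell by 0.56 ± 0.19 in WT muscle (1.48-fold, adjusted p = 0.0431), a call that did not survive the loss of any 1 of 11 arrays, nor either slide alone, and its change of -0.23 ± 0.19 in mFoxO-TKO muscle did not pass (adjusted p = 0.524). Trim55 read 0.90, 0.31, 0.84 and 0.91 in fed WT and 0.03, 0.29, -0.29 and 0.19 in fasted WT replicates 1 to 4. These groups did not overlap, although fed replicate 2 was close to the fasted mice, and the change of -0.68 ± 0.32 did not pass with all spots in (adjusted p = 0.161). In mFoxO-TKO muscle Trim55 read 0.68, 0.13, 0.45 and 0.79 when fed and -1.35, -0.28, 0.46 and 0.52 when fasted. The lowest of these values, fasted replicate 1, was the spot in the area of lost signal (median of its surroundings -1.58), and this was the only array where Trim55 was not well above background. With the spots of that area left out, so that n = 3 in that group, the WT change of -0.68 ± 0.21 passed (adjusted p = 0.0318). The mFoxO-TKO change then went from -0.67 to -0.28 (adjusted p = 0.541), and the knockout effect in fasted muscle from -0.22 to 0.18 (adjusted p = 0.733).

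Cblb, a RING ligase that acts on IRS1 in unloaded muscle, rose in both genotypes, and the rises did not differ at the threshold. Its brighter probe read 0.24, 0.73, 0.47 and 0.11 in fed WT and 3.08, 2.47, 2.05 and 2.06 in fasted WT replicates 1 to 4. In mFoxO-TKO muscle it read 0.69, 0.53, 0.10 and 0.38 when fed and 2.38, 2.23, 2.29 and 1.96 when fasted. Every fasted mouse of either genotype lay above every fed mouse, and fasted mice of the genotypes overlapped. The rise was 2.03 ± 0.22 in WT (4.08-fold, adjusted p = 1.56e-05) and 1.79 ± 0.22 in mFoxO-TKO muscle (3.46-fold, adjusted p = 0.000251). The difference between these effects was -0.24 ± 0.31, with a 95% confidence interval from -0.90 to 0.42 (adjusted p = 0.891). The dimmer probe rose by 0.97 ± 0.51 and 1.58 ± 0.51 and did not pass (adjusted p = 0.209 and 0.0726), with a value of 1.93 on fasted mFoxO-TKO replicate 1 against -1.25 to -0.87 on the other arrays of that group. That spot lay in the area of raised signal (median of its surroundings 2.20). Leaving out such areas gave changes of 0.97 ± 0.23 (adjusted p = 0.00583) and 0.85 ± 0.24 (adjusted p = 0.0413), both past the threshold, with n = 3 in that group.

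Mul1, a ligase of the mitochondrial outer membrane that acts on mitofusin 2, ran from 3.58 to 3.77 in fed and 3.97 to 4.32 in fasted WT muscle without overlap. It rose by 0.43 ± 0.12 (1.35-fold, adjusted p = 0.0201), but no longer passed when fasted WT replicate 1, fed WT replicate 2 or fed WT replicate 3 was dropped (adjusted p of 0.0524 to 0.0648). In mFoxO-TKO muscle it ran from 3.49 to 3.86 when fed and 3.63 to 3.87 when fasted, and the change of 0.11 ± 0.12 did not pass (adjusted p = 0.664). All fasted knockout mice lay below all fasted WT mice, with a difference of -0.33 ± 0.12 that did not pass (adjusted p = 0.11), but did under 5 of the alternatives, slide as a block (adjusted p = 0.033) among them.

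**Figure D4:**
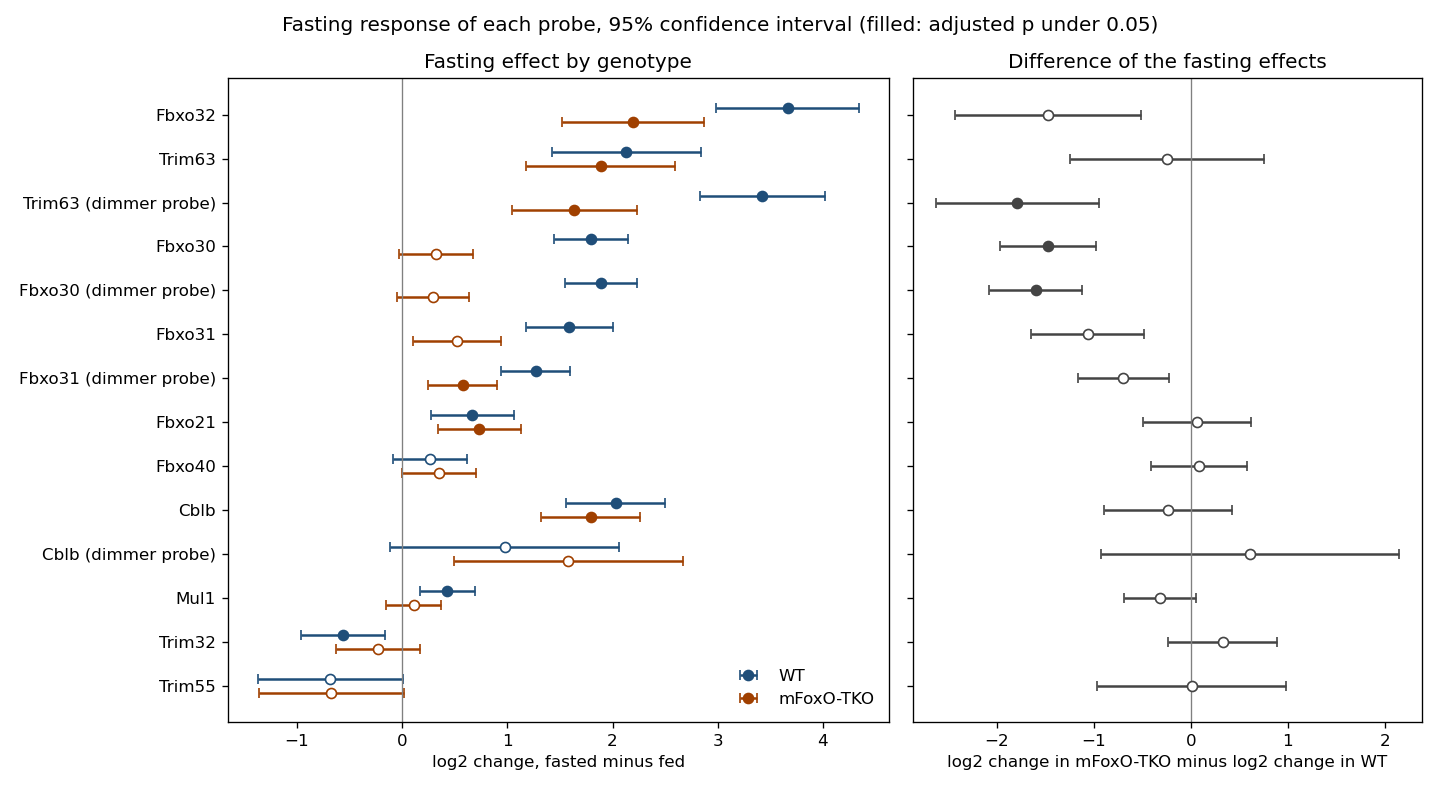
Fasting changes of the 14 probes in WT and mFoxO-TKO muscle (left) and the difference between them (right), in log2 units with 95% confidence intervals. Filled points passed at an adjusted p under 0.05. On the right the filled points are both probes of Fbxo30 (-1.47 and -1.60) and the dimmer probe of Trim63 (-1.79). The intervals, which are not adjusted over all genes, also leave out 0 for the open points of Fbxo32 (-2.43 to -0.51) and both Fbxo31 probes (-1.65 to -0.48 and -1.16 to -0.23). Those of all other open points include 0, among them Cblb, Fbxo21, Fbxo40 and the brighter probe of Trim63.

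The knockout effect was then asked in each feeding state. In fed muscle 0 of 10 members passed in limma, where 1.02% of all genes did, and 2 had an unadjusted p under 0.05: Trim63 (-0.86 ± 0.33, adjusted p = 0.352) and Fbxo32 (-0.70 ± 0.32, adjusted p = 0.494). Fed knockout and fed WT mice did not overlap for Trim63 on either probe, the only member of which this was so, against 9.16% of all genes. For the other 8 members the difference was between -0.23 and 0.12. In fasted muscle 4 of 10 members were lower in the knockout (9.36% of all genes passed, 4.97% lower): Fbxo32, Fbxo30, Fbxo31 and Trim63, as given above. The median over the members was -0.28 beside 0.04 over all genes. Values without overlap between fasted groups were seen for 4 members, Fbxo32, Fbxo30, Fbxo31 and Mul1, against 12.8% of all genes. For Cblb the difference was -0.20 ± 0.22, for Fbxo21 0.09 ± 0.19 and for Fbxo40 0.07 ± 0.16, and none of these passed (adjusted p of at least 0.669). Trim32 was 0.34 ± 0.19 and did not pass (adjusted p = 0.321), but did with the percentile over detected probes and with the authors' value table (adjusted p = 0.0472 and 0.0259).

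Order of the groups was thus not the same for all members. For Fbxo32, fasted WT was highest, fasted mFoxO-TKO next and the fed groups lowest, and the fed groups did not differ at the threshold. For Fbxo30, fasted WT was highest, and neither the fed groups nor fed and fasted mFoxO-TKO muscle differed at the threshold. The brighter probe of Fbxo31 gave the same order, but its fed and fasted mFoxO-TKO groups differed under some of the alternatives, as given above. For Cblb and Fbxo21 neither the fasted groups nor the fed groups differed at the threshold, and each fasted group was above the fed group of its genotype. The 95% confidence interval of the knockout effect in fasted muscle was -0.67 to 0.27 for Cblb and -0.30 to 0.48 for Fbxo21, so a smaller difference is not excluded.

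The main differences held their direction within each slide. Within slides 1 and 2 the WT fasting effect was 3.48 and 3.85 for Fbxo32, 2.17 and 2.09 for the brighter probe of Trim63, 1.81 and 1.77 for Fbxo30, 1.54 and 1.63 for Fbxo31 and 2.29 and 1.77 for Cblb. The difference of the fasting effects of Fbxo30 was -1.60 and -1.34 and passed in neither slide alone (adjusted p = 0.383 and 0.0629, 2 arrays a group).

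Other genes of the ubiquitin system and around these ligases were counted in lists. Of 38 other ubiquitin ligases and related genes studied in muscle, 5 rose and 2 fell in fasted WT muscle. In fasted mFoxO-TKO muscle 3 rose and 2 fell, and the median was 0.17 in both genotypes. Of all genes tested, 20.8% passed in WT and 8.52% in mFoxO-TKO fasting. The genes named from each list were picked among those that passed. Nedd4l, a HECT ligase of membrane channels, rose by 1.37 ± 0.26 in WT muscle (adjusted p = 0.00159) and Siah1a, a RING ligase, by 1.19 ± 0.25 (adjusted p = 0.00301); neither passed in the knockout (0.52 and 0.65). Skp2, the F-box protein of p27 turnover, fell by 1.37 ± 0.27 and by 1.04 ± 0.27 (adjusted p = 0.00194 and 0.0261), and Fbxw7 fell by 1.09 ± 0.21 and by 0.77 ± 0.21 (adjusted p = 0.00158 and 0.0312). None of the 38 passed in the difference of the fasting effects, where 1.15% of all genes did (limma, 2 of the 38 at an unadjusted p under 0.05).

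Among 13 genes of the SCF core, other cullins and neddylation, 1 rose and 3 fell in fasted WT muscle. In fasted mFoxO-TKO muscle 0 passed (limma, 2 at an unadjusted p under 0.05). The shares of all genes that passed were 20.8% and 8.52%. Cul1, the scaffold of SCF ligases, rose by 0.66 ± 0.16 (adjusted p = 0.00911). Cand2, which exchanges substrate receptors on cullins, fell by 0.75 ± 0.20 (adjusted p = 0.0129) and was higher in fasted knockout than in fasted WT muscle by 0.87 ± 0.20 (adjusted p = 0.00996). Uba3 and Dcun1d1, of the neddylation pathway, fell by 0.48 ± 0.14 and by 0.65 ± 0.19 (adjusted p = 0.0259 and 0.0271).

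Of 30 substrates or partners of the members, 3 rose and 2 fell in WT fasting and 3 rose and 1 fell in mFoxO-TKO fasting. Beside these counts, 20.8% and 8.52% of all genes passed. All values here are of transcripts, and the amount or breakdown of the proteins was not measured. Myod1, whose protein Fbxo32 directs to breakdown, fell by 2.97 ± 0.43 in WT muscle (7.84-fold, adjusted p = 0.000168) and changed by 0.05 ± 0.43 in mFoxO-TKO muscle (adjusted p = 0.967). Its fasting effects differed by 3.02 ± 0.61 (adjusted p = 0.0234). Ccnd1, the cyclin that Fbxo31 acts on, fell in both genotypes, by 2.25 ± 0.44 and by 1.88 ± 0.44 (adjusted p = 0.00179 and 0.0144). Irs2 rose in WT muscle by 1.69 ± 0.34 (adjusted p = 0.00227) and its change of 1.06 ± 0.34 in the knockout did not pass (adjusted p = 0.069). Gdf5, the BMP ligand upstream of Fbxo30, rose by 1.59 ± 0.38 in WT muscle (adjusted p = 0.00736) and changed by 0.45 ± 0.38 in the knockout (adjusted p = 0.55).

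Of 25 regulators of these ligases, 8 rose and 3 fell in fasted WT muscle, and 3 rose and 1 fell in fasted mFoxO-TKO muscle, with medians of 0.38 and 0.09. All genes passed at shares of 20.8% and 8.52% in these comparisons. Klf15 and Cebpd, transcription factors induced by glucocorticoids, rose by 2.15 ± 0.28 and 3.31 ± 0.38 in WT muscle (adjusted p = 7.18e-05 and 2.28e-05). They also rose in mFoxO-TKO muscle, by 0.95 ± 0.28 and 1.82 ± 0.38 (adjusted p = 0.0475 and 0.00755), and both were lower in fasted knockout than in fasted WT muscle, with differences of -1.73 ± 0.28 and -1.61 ± 0.38 (adjusted p = 0.000873 and 0.0117). Cebpb rose by 1.94 ± 0.31 in WT muscle (adjusted p = 0.000688), with 1 array of each fasted group missing from its fit, and its change of 0.89 ± 0.31 in the knockout did not pass (adjusted p = 0.108). Foxo6, the FoxO gene that the knockout leaves in place, fell in both genotypes, by 2.58 ± 0.23 and by 2.14 ± 0.23 (adjusted p = 2.19e-06 and 6.1e-05). It was higher in fasted knockout than in fasted WT muscle by 0.97 ± 0.23 (adjusted p = 0.0117).

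The genes whose signal followed Fbxo32 most closely over the 16 arrays, of 12764 compared, were Klhl38 (Pearson r = 0.987), Pmm1 (0.984), Flcn (0.974), Zbtb10 (0.970) and Gucd1 (0.970). Those closest to the brighter probe of Trim63 were Armcx5 (0.964), Ubr4 (0.946), Eif4g3 (0.946), Zfp143 (0.945) and Usp13 (0.942). The arrays fall into 4 groups, so these values mostly describe shared differences of group means, and they are given as a description. Klhl38, a Kelch protein, rose by 2.77 in WT and 1.65 in mFoxO-TKO fasting, beside 3.67 and 2.19 for Fbxo32, whereas Ubr4, itself a large ubiquitin ligase, rose by 0.76 and 0.69, beside 2.13 and 1.89 for Trim63. Among the members, Fbxo30 (0.929), Fbxo31 (0.921) and Trim63 (0.909) were nearest to Fbxo32, and Trim32 ran against it (-0.648).

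Some markers of other cell types moved with fasting. The share of all genes that passed was 20.8% in WT fasting, 8.52% in mFoxO-TKO fasting and 9.36% for the knockout in fasted muscle. Sums are over the arrays that read every marker of a list, which leaves out 1 fed WT and 1 fasted mFoxO-TKO array for fibroblasts and 1 array of each WT group for endothelium. Of 5 fibroblast markers 3 fell in WT and 2 in mFoxO-TKO fasting, and their summed signal relative to the 75th percentile ran from 414 to 508 in fed WT, 286 to 429 in fasted WT, 397 to 458 in fed mFoxO-TKO and 260.3 to 309.6 in fasted mFoxO-TKO muscle. Of 5 macrophage markers Mrc1 fell in WT and Adgre1 in mFoxO-TKO fasting, and Mrc1 was higher in fasted knockout than in fasted WT muscle. Their sums were 13.2 to 22.4, 12.0 to 14.9, 19.0 to 40.1 and 11.02 to 25.5 in the same order of groups. Between the fed groups none of the 5 passed, but the median knockout effect was 0.92 and 3 had an unadjusted p under 0.05 (limma). In WT fasting 1 of 4 fat cell markers, 1 of 4 endothelial markers and 1 of 2 satellite cell markers fell, and in mFoxO-TKO fasting 1 of 4 fat cell markers did. The fat cell sums ran from 76.5 to 117, 61.6 to 108, 66.4 to 110.0 and 59.5 to 75.5, the endothelial sums from 18.8 to 21.2, 10.7 to 17.6, 11.2 to 25.3 and 12.2 to 20.2, and the satellite cell sums from 1.81 to 2.10, 0.825 to 1.61, 1.84 to 3.90 and 0.913 to 2.10, in that order of groups. No marker of red cells (3 tested), nerve (4) or smooth muscle (3) passed in any comparison, with at most 2 of a list at an unadjusted p under 0.05 in limma. Lep, Myf5 and 1 of the red cell genes listed were not among the genes tested. The part of these cell types in the results for the ligases was not tested.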

How the data were processed

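RNA of 16 quadriceps muscles was hybridised to 1-colour Agilent arrays, 1 array a mouse. The deposited scanner files give each spot's intensity, the processed signal being background-corrected by Feature Extraction 11.0.1.1, per the file headers (9.5 per the submitters' processing notes). The authors' value table, also deposited, holds whole-number scores for 18324 spots with a 75th percentile of 100 on each array. Each score of 100 or more was within 2% of 1 factor per array times the processed signal, and lower scores were not compared. It was used as an alternative, as log2(score + 1), and its exact scaling is not known here.

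From the deposited intensity, 0.143% to 3.28% of spots an array, marked uneven or as outliers, were left out. The log2 values were averaged per probe and the array's 75th percentile was subtracted. Probes were kept where all arrays of some group read them well above background, with at least 2 values in each group. This kept 28571 of 55681 probes, and 21281 genes with the brightest probe each, of which 14149 had a gene symbol. Probes without a symbol were grouped by the name that the array design gives their target. limma 3.58.1 in R 4.3.3 fitted 4 group means over 16 arrays (12 residual degrees of freedom) with Benjamini-Hochberg adjustment. A gene's dimmer probes were taken from the same fit over all kept probes. The calculation was tested on simulated data.

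The labels do not say that the mice of a group were more than separate samples. The p-values set differences between groups against the spread of samples within groups, and the number of samples, 16, limits the precision. The members and gene lists were chosen with earlier results of these data known. Named were all members, the FoxO genes, up to 4 genes of each list with the largest WT fasting change among those that passed, and the 5 genes most like Fbxo32 and Trim63. Replicate numbers were checked for pairing: of 24 same-numbered pairs the correlation of deviations ran from 0.0074 to 0.413, with 19 over 0.1. The other 5 pairs were not over 0.1, and 11 of the 16 arrays correlated best with an array of their own number. The labels do not tie a number to a litter or day, and the main fit does not pair the mice. By the file headers, however, a number is 1 slide and 1 row of arrays, and the main fit does not take out an effect shared by these. Slide is given as a block beside each call it changes, and the calls with the replicate block are given in the last section.

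Alternatives were normexp background correction (offset 50, on the median signal, because the mean signal was not used here), quantile normalization, the percentile over probes well above background on all arrays, other filters, marked spots kept, areas of lost or raised signal left out, slide or replicate number as a block, each slide alone, another probe and each array left out in turn. The areas of raised signal, the omission of areas on any array and the within-array difference of the Trim63 probes were chosen after seeing the data. Areas were windows of 9 by 9 spots with at least 10 bright spots whose median departed by over 1 log2 unit from the other arrays of the group.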

Additional observations from a re-analysis of the deposited data

Results flagged for a closer look

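For 3 probes, 1 array stood apart from the rest of its group. Fasted WT replicate 2 had an Fbxo21 signal of 2.84, against 2.29 to 2.37 in the other 3 mice. Fasted mFoxO-TKO replicate 1 had a value of 1.93 on the dimmer Cblb probe, against -1.25 to -0.87 in the others, and its spot lay in an area of raised signal. Fed WT replicate 2 had a Trim55 signal of 0.31, against 0.84 to 0.91. These were 3 of 56 groups of 4 examined, and chance alone gives about 1 in 20.

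The fasting effect differed between genotypes by the test of the difference for both Fbxo30 probes (-1.47 and -1.60) and for the dimmer Trim63 probe (-1.79), but not for the brighter Trim63 probe (-0.24).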

How the results depend on the processing

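Leaving out 1 array at a time gave 6 to 9 members called in WT fasting (8 with all arrays), 3 to 5 in mFoxO-TKO fasting (4), 0 to 0 for the knockout in fed muscle (0), 3 to 4 in fasted muscle (4) and 1 to 2 for the difference of the fasting effects (1). Within slide 1 alone these counts were 4, 0, 0, 1 and 0, and within slide 2 the last was 0. Under quantile normalization, the percentile over detected probes, the authors' value table, marked spots kept, slide as a block and the replicate block, 2 members were called for the difference, Fbxo31 being the second.

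Over all genes, 4426 were called in WT fasting, 6348 with the replicate block and 876 within slide 1. For mFoxO-TKO fasting the count of 1814 became 1169 with normexp, 2724 with the percentile over detected probes, 992 with no filter, 2800 with slide as a block, 3183 with the replicate block and 127 within slide 1. For the knockout in fed muscle, 217 became 130 with normexp, 374 with that percentile, 109 with no filter, 422 with slide as a block, 410 with the replicate block, 367 with the authors' table and 33 within slide 2. For the knockout in fasted muscle, 1991 became 3300 with the percentile over detected probes, 3026 with slide as a block, 3377 with the replicate block and 416 within slide 1. For the difference, 244 became 524 with that percentile, 708 with the authors' table, 79 with no filter, 427 with marked spots kept, 564 with slide as a block, 697 with the replicate block and 7 and 70 within slides 1 and 2. The share of calls that were higher in WT fasting was 54.0%, but 37.1% with that percentile and 40.5% with the authors' table, where the median of all genes moved from 0.02 to -0.11 and -0.08; for the knockout in fasted muscle it went from 46.9% to 62.5% and for the difference from 36.9% to 51.5%. With the replicate block, Fbxo31 was added in mFoxO-TKO fasting (5 members, adjusted p = 0.013) and in the difference (adjusted p = 0.00731), and Mul1 for the knockout in fasted muscle (5 members, adjusted p = 0.011); no other member call changed, and 11 of 16 arrays correlated best with an array of their own number. The count for the knockout in fasted muscle was 6 with the percentile over detected probes and with the authors' table (Mul1 and Trim32 added).

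Leaving out 1 array moved these counts to between 3442 and 5411 in WT fasting, 1078 and 2113 in mFoxO-TKO fasting, 105 and 311 for the knockout in fed muscle, 1533 and 2301 in fasted muscle, and 133 and 437 for the difference. The move was over 1.5 times in mFoxO-TKO fasting without fed mFoxO-TKO replicate 2 or 3 or fasted replicate 3, for the knockout in fed muscle without replicate 1, 2 or 3 of either fed group, and for the difference without fed WT replicate 1, 3 or 4, fed mFoxO-TKO replicate 2 or 3 or fasted mFoxO-TKO replicate 1 (437), 2 or 4.

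Signs turned only for differences that did not pass. In fed muscle, the knockout effect was -0.018 for Fbxo30 within slide 2. For Fbxo31 it was -0.12 on the other probe and -0.042 to 0.21 over the arrays left out. For Fbxo21 it was -0.014 with the authors' table, -0.17 within slide 2 and -0.083 to 0.10 over the arrays left out. For Fbxo40 it was 0.00042 with normexp, 0.12 within slide 1 and -0.10 to 0.065 over the arrays left out. For Cblb it was -0.050 within slide 2, -0.081 on the other probe and -0.055 to 0.15 over the arrays left out. For Mul1 it was 0.00053 with normexp, 0.037 within slide 1 and -0.089 to 0.035 over the arrays left out. For Trim32 it was -0.0051 with normexp, -0.0089 with the percentile over detected probes, -0.024 with the authors' table, -0.0093 with marked spots kept, -0.12 within slide 1 and -0.12 to 0.11 over the arrays left out. In fasted muscle it was -0.0060 for Fbxo21 with normexp, -0.0026 within slide 2 and -0.043 to 0.22 over the arrays left out, and -0.067 to 0.19 for Fbxo40. For Cblb it was 0.071 within slide 2, 0.53 on the other probe and -0.32 to 0.024 over the arrays left out. For Trim55 it was 0.18 without the patch or all areas, 0.54 within slide 2 and -0.44 to 0.18 over the arrays left out. The difference of the fasting effects was 0.13 for Trim63 within slide 1 and -0.59 to 0.072 over the arrays left out. For Fbxo21 it was -0.019 with normexp, -0.031 within slide 1 and -0.067 to 0.19 over the arrays left out, and for Fbxo40 -0.071 within slide 1 and -0.054 to 0.20. For Cblb it was 0.12 within slide 2 and 0.61 on the other probe, and for Trim55 -0.20 with normexp, -0.0046 with marked spots kept, -0.77 within slide 1 and -0.22 to 0.40 over the arrays left out. The cause of these changes was not tested, and each slide alone has 2 arrays a group.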
